A study of Mus musculus with 24 samples.

Results

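The collagen gene family was followed through 4 comparisons of let-7afd knockout with control mouse lung samples. Members were all genes whose symbol has the form Col, a number, a and a number. This gave 44 of the 24970 gene symbols listed in each table, of which 11 encode fibrillar collagens, 8 basement membrane collagens (types 4, 15 and 18) and 25 other collagens. Over the 24 libraries, 31 members reached 1 TPM (a transcript's share of each library's transcripts, already divided by its length) in at least 1 library and 13 stayed under 1 TPM in all. Of the 44, 29 passed the filter on low values and were tested in at least 1 comparison, 12 in all 4, 17 passed the test in at least 1 comparison and 27 in none.

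Alveolar type 2 (AT2) cells are the surfactant-secreting epithelial cells of the lung. Control mice carried Sftpc-CreER/+; R26-tdT/+, knockout mice let7afd-/- in addition, and mice of both genotypes received tamoxifen. Because Sftpc, the gene of surfactant protein C, drives CreER, the deletion was directed to AT2 cells. Whether all other cells of whole lungs keep the genes was not checked here. Fresh sorted AT2 cells came from pools of 3 mice per group after 6 days of tamoxifen (3 control and 3 knockout libraries), and the labels do not say whether each library was a pool of its own, so p-values measure only the spread between these libraries. Whole lungs were taken after 6 days of tamoxifen (3 mice of each genotype) and after 6 months of booster tamoxifen (4 of each). AT2 organoids came from 2 mice of each genotype after 6 days of tamoxifen and were grown in 3 dimensions in AMM medium for 14 days. Every group carried the Cre driver and the reporter, so no group shows the untreated, Cre-free state. The sources used here state neither the age of the mice nor the sort markers.

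Collagens are secreted proteins built from 3 chains wound into a triple helix. Fibrillar types give tissue its tensile strength, type 4 forms the sheet-like network of basement membranes on which alveolar cells sit, and the remaining types decorate fibrils, form beaded filaments or anchor cells as membrane proteins. In the lung, fibrillar collagens come mainly from fibroblasts, and their accumulation is the defining feature of pulmonary fibrosis. The let-7 microRNAs bind transcripts through a seed at bases 2 to 8 and lower their stability or translation, and fibrillar collagen transcripts have long been listed among their predicted targets.

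The 3 deleted microRNAs lie in 1 cluster on mouse chromosome 13 (minus strand, GRCm38), with let-7a at 48538239 to 48538260, let-7f at 48537889 to 48537910 and let-7d at 48536078 to 48536099. Their mature RefSeq sequences are shown because all share the same seed, in capitals.
let-7a-5p: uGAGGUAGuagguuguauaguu
let-7f-5p: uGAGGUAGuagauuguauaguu
let-7d-5p: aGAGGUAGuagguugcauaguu

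The longest annotated 3′ UTR of each collagen was searched on the transcript strand for the 8-base match CTACCTCA and for the 7-base matches CTACCTC and TACCTCA that lie within it. At least 1 such match was found in 18 of 44 collagens (40.9%), against 15.5% of the 19820 genes with a 3′ UTR that was searched. The full 8-base match was found in 3 collagens (6.82%, against 3.19% of all genes searched), and all 3 encode fibrillar chains. Their sites are printed with the match in capitals, on the transcript strand: Col1a2 at chr6:4541063-4541088 (plus), Col3a1 at chr1:45349136-45349161 (plus) and Col5a2 at chr1:45375097-45375122 (minus), all GRCm38.
Col1a2 site: tccaaaggtttgaaCTACCTCAagac
Col3a1 site: cctccctatgttaaCTACCTCAactg
Col5a2 site: tttcttagcatgacCTACCTCAtctc

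As examples among the collagens described below, 7-base matches lie in Col1a1 (chr11:94952391-94952415), Col4a1 (chr8:11199678-11199702, minus), Col6a2 (chr10:76598498-76598522, minus), Col15a1 (chr4:47312420-47312444) and Col23a1 (2 matches, the first at chr11:51580665-51580689). The other collagens with a 7-base match are Col4a2, Col4a5, Col6a6, Col9a1, Col9a3, Col10a1, Col14a1, Col24a1, Col26a1 and Col27a1. A match is a description of the letters, not a site of binding.
Col1a1 site: gtgttgctgaaagaCTACCTCgttc
Col4a1 site: aattatatcctgtgTACCTCActgt
Col6a2 site: ggcaggacttttgaTACCTCAgcca
Col15a1 site: aaccaaagaaaacaTACCTCAgtat
Col23a1 site: gcaggctctgtggaTACCTCAgtgt

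As a description, the median log2 fold change (knockout over control, on log2(TPM + 1)) of tested collagens with and without such a match was 0.50 and 0.30 for sorted AT2 cells, 0.11 and -0.13 for 6-day lungs, 0.03 and -0.05 for 6-month lungs and 0.91 and -1.40 for organoids. The collagens with a match numbered 9, 12, 12 and 5 of those tested. Of those tested in sorted AT2 cells, 8 of 9 with a match and 4 of 7 without had a positive value, beside 63.5% of all genes tested. Some collagens met the filter on low values through 1 genotype only, which set their sign. In sorted AT2 cells this was Col5a2 (match, through the knockouts). In organoids these were Col1a1 (match, through the knockouts) and, through the controls, Col23a1 (match), Col6a1, Col7a1 and Col25a1 (no match). The medians and counts therefore do not compare the groups freely.

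The library sums were 999919.8 to 999972.4 TPM, and since TPM keep no read numbers, depth and counting error are unknown. Mature let-7 is not captured by poly(A)-selected libraries, so the deletion itself was not checked here. The AT2 label was met by its markers: Sftpc averaged 146840.0 TPM in the sorted control libraries and 108060.0 TPM in the knockouts. At 6 days, knockout 3 of the whole lungs stood apart: 8.45% of its TPM were the haemoglobin genes Hba-a1, Hba-a2, Hbb-bs and Hbb-bt, against 0.876% to 4.52% in the other 5 lungs, and it had the lowest value of the 6 for 60.8% of the 14154 genes tested. Among sorted AT2 libraries, control 1 had the highest level of the fibrillar collagens among the 3 controls.

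The kinds of sample differed in which collagens led, with the tables scaled apart by the authors. In sorted AT2 cells the highest mean over all 6 libraries was that of Col6a1 (247 TPM), a chain of the beaded filaments around cells, followed by the basement membrane chains Col4a1 (178 TPM) and Col4a2 (161 TPM). In whole lungs Col4a1 led at both times (516 TPM at 6 days and 253 TPM at 6 months), with Col3a1 (407 and 174 TPM) and Col1a2 (305 and 163 TPM) among the next. In organoids Col4a1 (134 TPM) and Col4a2 (109.5 TPM) led and fibrillar collagens were close to absent: Col1a2, Col3a1 and Col5a2 were at 0 in both controls. All 44 members together made up 0.0623% to 0.0894% of the TPM of sorted AT2 cells. For 6-day lungs the share was 0.128% to 0.465%, for 6-month lungs 0.136% to 0.175%, and for organoids 0.0396% to 0.0444%.

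**Figure D1:**
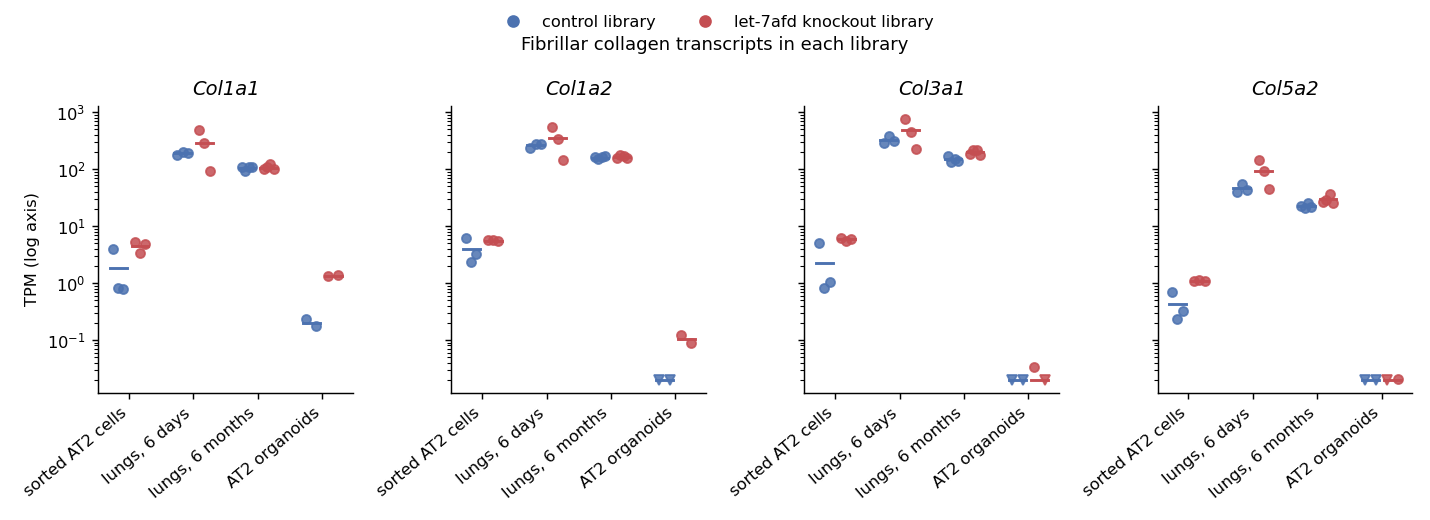
TPM on a log axis of 4 fibrillar collagens in every library of the 4 kinds of sample, control in blue and knockout in red, with bars at the group means and values under 0.02 TPM drawn as triangles at that level. In lungs at 6 days the knockout libraries spread from 229.5 to 771 TPM for Col3a1, and at 6 months of these 4 genes only Col3a1 and Col5a2 have all knockouts above all controls.

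In sorted AT2 cells 3 of 16 tested collagens rose in the knockout and none fell (limma, Benjamini-Hochberg adjusted p under 0.05), where 6.62% of all genes tested rose and 1.22% fell. They were Col6a2 and Col6a1, the type 6 chains, and Col18a1, the basement membrane collagen that gives rise to endostatin. At an unadjusted p under 0.05, 7 of the 16 collagens were higher and 1 lower, beside 20.5% and 6.75% of all genes tested. All knockouts lay above all controls for 7 of the 16 and below them for 1, beside 25.4% and 8.31% of all genes tested. The median log2 fold change was 0.40 over the tested collagens and 0.08 over all genes tested. Both counts of higher collagens and the median include Col5a2, whose sign was set by the filter.

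Col6a2 (chromosome 10, 76595762 to 76623630) stood at 41.3, 42.5 and 49.9 TPM in the controls and 64.8, 82.4 and 91.0 TPM in the knockouts. Each knockout lay above each control, and the rise was 0.81 on the log2 scale (SE 0.13, adjusted p 0.0154). Col6a1, its neighbour on chromosome 10, stood at 187, 202 and 204.5 TPM in the controls and 234, 311 and 344 TPM in the knockouts, again without overlap (log2 fold change 0.56, SE 0.14, adjusted p 0.0478). The next chain of the filament, Col6a3, was listed at 0.0888 to 0.823 TPM in all 6 libraries, so in these cells it was 0.000434 to 0.0044 of the Col6a1 level and was not tested. Col18a1 stood at 9.46, 8.42 and 11.2 TPM in the controls and 15.5, 13.4 and 17.4 TPM in the knockouts, also without overlap (log2 fold change 0.62, SE 0.13, adjusted p 0.0345). The other basement membrane collagens did not pass, with Col4a1 at a log2 fold change of 0.07 (SE 0.08, adjusted p 0.608) and Col4a2 at 0.19 (SE 0.09, adjusted p 0.21).

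Of the fibrillar collagens, 4 were tested in sorted AT2 cells and 0 passed with all libraries, with log2 fold changes of 0.50 to 1.31. Col5a2 met the filter only through the knockouts, so its sign was set by the filter. Col3a1, the chain of type 3 collagen, stood at 4.97, 0.808 and 1.04 TPM in the controls and 6.31, 5.52 and 6.06 TPM in the knockouts (log2 fold change 1.31, SE 0.40, adjusted p 0.0858). Col1a1, a chain of type 1 collagen, stood at 4.02, 0.825 and 0.78 TPM in the controls and 5.36, 3.44 and 4.85 TPM in the knockouts (1.11, SE 0.38, adjusted p 0.11). Control 1 alone was near the knockouts for both. Col1a2, the partner chain, stood at 6.17, 2.36 and 3.18 TPM and at 5.69, 5.602 and 5.498 TPM (0.50, SE 0.25, adjusted p 0.235), with control 1 above all knockouts. Col5a2, of the minor fibrillar type 5, stood at 0.706, 0.232 and 0.325 TPM and at 1.07, 1.13 and 1.10 TPM (0.58, SE 0.18, adjusted p 0.0918).

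Without control 1, 3 of these 4 rose: Col3a1 (log2 fold change 1.86, SE 0.15, adjusted p 0.00599), Col1a1 (1.61, SE 0.20, adjusted p 0.016) and Col1a2 (0.82, SE 0.15, adjusted p 0.0413). Control 1 held the highest fibrillar level of the controls, so leaving it out raises these values by itself. Both remaining controls of Col1a1 were under 1 TPM, so it then met the filter only through the knockouts, which set its sign. No other collagen passed in that fit, in which 2.49% of all genes tested rose and 0.342% fell, and Col6a2 then missed the threshold (0.76, SE 0.15, adjusted p 0.0516). These levels were low: the 11 fibrillar collagens summed to 17.3 TPM in control 1, 5.28 and 6.14 TPM in the other 2 controls and 16.7 to 19.4 TPM in the knockouts. Of the fibroblast markers 6 of 12 were tested and 0 passed, with a summed level of 134 to 149.7 TPM in the controls and 106 to 199 TPM in the knockouts, most of it Npnt, and Dcn, a fibroblast proteoglycan, averaged 4.02 and 5.53 TPM. Of these 6 markers 5 had a positive log2 fold change (median 0.42), as did 63.5% of all genes tested (median 0.08). Smooth muscle and pericyte markers were positive for 4 of 4 tested (median 0.38, 0 passing). They summed to 7.04 to 16.6 TPM in the controls and 14.1 to 22.3 TPM in the knockouts. Endothelial markers were positive for 3 of 7 tested (median -0.02, 0 passing). Macrophage markers rose in the same libraries (4 of 8 tested, summed level 40.2 to 72.8 TPM in the controls and 164 to 283 TPM in the knockouts). Erythrocyte markers rose for 2 of 3 (81.3 to 160.02 TPM and 284.5 to 480.8 TPM). Of all genes tested with all libraries, 6.62% rose and 1.22% fell. Basal and airway markers were positive for 2 of 4 tested (median 0.40, 0 passing). They summed to 2827 to 13092 TPM in the controls and 2157 to 4851 TPM in the knockouts. AT1 markers rose for 1 and fell for 1 of 7 tested, with sums of 3841 to 4243 TPM and 2799 to 4373 TPM. AT2 markers passed for 0 of 8, with a summed level of 238270 to 253700 TPM in the controls and 150860 to 222790 TPM in the knockouts. The part of other cells in these values was not tested. In bulk samples such as these, fewer cells of a type and less RNA per cell cannot be told apart.

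The 3 calls of sorted AT2 cells were not stable. Col6a2 passed in 3 of the 6 fits that left out 1 library (it did not without control 1, control 2 or knockout 3), and Col6a1 and Col18a1 in 1 each (Col6a1 only without knockout 1, Col18a1 only without knockout 2). Under median-ratio scaling, quantile normalization or no filter on low values, Col6a2 was the only collagen that passed.

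In whole lungs after 6 days of tamoxifen 28 collagens were tested and none passed in either direction by limma, where 3.16% of all genes tested rose and 3.79% fell. The unadjusted p was under 0.05 for 0 of 28 higher and 4 lower, a share of lower genes close to the 15.3% of all genes tested (9.85% were higher). The knockouts spread far more than the controls. Col3a1 stood at 286, 391 and 318 TPM in the controls and 771, 444 and 229.5 TPM in the knockouts (log2 fold change 0.38, SE 0.38, adjusted p 0.547). Knockouts 1 and 2 lay above all controls and knockout 3 below them. Col1a1 behaved alike, with 181, 199 and 195 TPM in the controls and 492, 285 and 93.3 TPM in the knockouts (0.30, SE 0.50, adjusted p 0.727). So did Col4a1, the main basement membrane chain, at 348, 517 and 385 TPM and at 969.8, 642 and 235 TPM (0.36, SE 0.45, adjusted p 0.636). Col1a2, Col4a2, Col6a1, Col6a2 and Col6a3 had log2 fold changes of 0.21, 0.11, 0.01, 0.02 and -0.16, with SEs of 0.28 to 0.52.

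Knockout 3 was the lowest of the 6 libraries for 25 of 29 collagens that were tested when it was left out. It was also the lowest for 60.8% of the 14154 genes tested with all 6 lungs, a set filtered with knockout 3 included. The fibrillar collagens summed to 769 to 956 TPM in the controls, 2041 and 1207 TPM in knockouts 1 and 2 and 529 TPM in knockout 3. What was called rested on which knockout was left out. Without knockout 3, 6 of 29 collagens rose and 3 fell, where 7.19% of all genes tested rose and 7.08% fell, and the median log2 fold change was 0.41 over the collagens and 0.86 over the fibrillar ones. Without knockout 1, 0 of 29 rose and 3 fell, where 3.25% of all genes tested rose and 6.81% fell, and those medians were -0.36 and -0.22. In that fit Col17a1 (-1.13, SE 0.24, adjusted p 0.028), Col4a6 (-1.16, SE 0.30, adjusted p 0.0487) and the fibril-associated Col14a1 (-0.84, SE 0.22, adjusted p 0.0482) fell, and Col1a1 was at -0.23 (SE 0.39, adjusted p 0.692). Both remaining knockouts of Col17a1 were under 1 TPM, so it then met the filter only through the controls, which set its sign. Without knockout 2, or without any 1 control, 0 collagens passed.

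**Figure D2:**
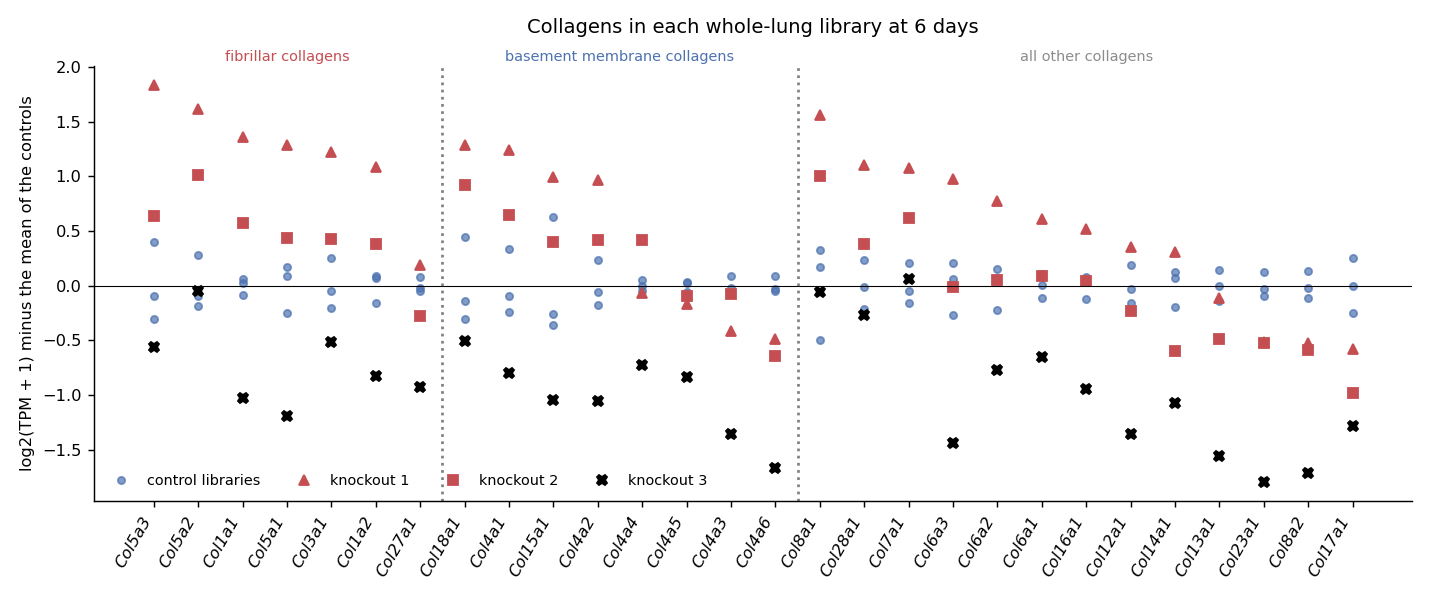
log2(TPM + 1) of the 28 tested collagens in each whole-lung library at 6 days, minus the mean of the 3 controls, grouped by class and ordered by knockout 1. Knockouts 1 and 2 lie above all controls for fibrillar collagens such as Col1a1, Col1a2 and Col3a1. Among the basement membrane collagens they lie above for Col4a1, Col4a2 and Col18a1, and below for Col4a3, Col4a5 and Col4a6. They also lie below for Col23a1, Col8a2 and Col17a1, while knockout 3 (black crosses) is lowest for most genes.

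Among the 6 that rose without knockout 3, Col5a2 stood at 40.5, 56.1 and 43.2 TPM in the controls and 143 and 93.8 TPM in knockouts 1 and 2 (log2 fold change 1.31, SE 0.21, adjusted p 0.0114), with knockout 3 at 44.7 TPM, within the controls. Col1a1 rose by 0.97 (SE 0.21, adjusted p 0.027), Col4a1 by 0.94 (SE 0.22, adjusted p 0.0343) and Col18a1 by 1.10 (SE 0.23, adjusted p 0.0231). Col8a1, a short network-forming collagen of vessels, rose by 1.28 (SE 0.28, adjusted p 0.0261) and Col7a1, the anchoring fibril collagen, by 0.85 (SE 0.22, adjusted p 0.0459). Col1a2 (0.73, adjusted p 0.0513), Col4a2 (0.69, adjusted p 0.0514) and Col3a1 (0.83, adjusted p 0.0595) missed the threshold.

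The 3 that fell without knockout 3 were the transmembrane collagen Col23a1 (-0.52, SE 0.11, adjusted p 0.0226), Col8a2, the partner of Col8a1 (-0.56, SE 0.13, adjusted p 0.0347), and Col4a6 (-0.57, SE 0.13, adjusted p 0.035). For these the knockouts did not divide: Col23a1 stood at 32.6, 31.2 and 36.4 TPM in the controls and at 23.0, 22.9 and 8.93 TPM in the knockouts, and with all 6 lungs its log2 fold change was -0.94 (SE 0.33, adjusted p 0.126). Col17a1, a hemidesmosome protein, was nearest to the threshold with all 6 lungs, at 1.64, 2.13 and 2.75 TPM in the controls and 1.11, 0.586 and 0.294 TPM in the knockouts (-0.95, SE 0.24, adjusted p 0.0529).

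Marker levels moved in the same lungs, where 3.16% of all genes tested rose and 3.79% fell. Fibroblast markers were lower for 6 of 12 (summed level 4155 to 4712 TPM in the controls and 1662 to 2951 TPM in the knockouts, led by Inmt and Mfap4), heart muscle markers for 6 of 6, and macrophage markers summed to 1540 to 1597 TPM in the controls and 3822 to 12925 TPM in the knockouts, with 3 of 9 higher and 1 lower. The fibrillar collagens of knockouts 1 and 2 were higher in lungs whose summed fibroblast markers were lower. Their part in the collagen values was not tested.

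In whole lungs at 6 months 6 of 28 tested collagens rose and 9 fell, where 15.9% of all genes tested rose and 13.9% fell. All knockouts lay above all controls for 6 of the 28 and below them for 8, beside 16.4% and 14.2% of all genes tested. The median log2 fold change was 0.00 over the tested collagens and over all genes. The summed level of all members was 1398 to 1553 TPM in the controls and 1361 to 1746 TPM in the knockouts, so the groups overlapped in total while their makeup differed.

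**Figure D3:**
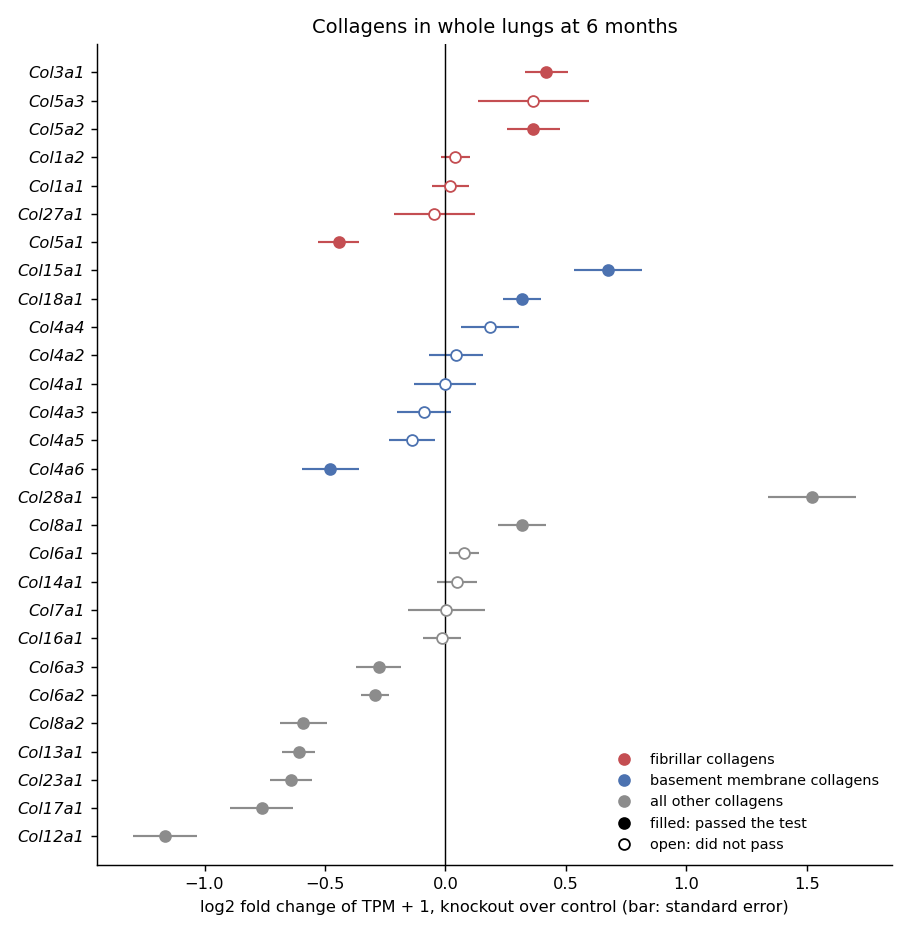
log2 fold change of TPM + 1, knockout over control, of the 28 collagens tested in whole lungs at 6 months (points, with bars of 1 standard error), grouped by class, filled where the test was passed. Col28a1 lies farthest to the right at 1.52 and Col12a1 farthest to the left at -1.16, while Col1a1, Col1a2, Col4a1 and Col4a2 lie near 0.

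Of 7 fibrillar collagens tested at 6 months, 2 rose and 1 fell, beside 15.9% and 13.9% of all genes tested. Col3a1 (chromosome 1, 45311538 to 45349706) stood at 170.4, 133, 151 and 141 TPM in the controls and 185, 219, 216 and 178 TPM in the knockouts. All knockouts lay above all controls (log2 fold change 0.42, SE 0.09, adjusted p 0.00428), and the call was kept in all 8 fits that left out 1 lung. Its neighbour on the opposite strand, Col5a2 (45374321 to 45503282), stood at 22.5, 20.97, 25.2 and 21.7 TPM and at 27.1, 29.3, 36.9 and 25.2 TPM (0.37, SE 0.11, adjusted p 0.0276), but passed in 3 of those 8 fits (without control 3, knockout 1 or knockout 4). The partner chain Col5a1 fell, from 17.4, 17.4, 21.4 and 17.6 TPM to 12.4, 13.1, 13.6 and 13.9 TPM (-0.44, SE 0.09, adjusted p 0.00254).

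Type 1 collagen was not among the genes that passed. Col1a1 stood at 111, 94.1, 108 and 109 TPM in the controls and 99.4, 108, 121 and 99.7 TPM in the knockouts (0.02, SE 0.08, adjusted p 0.888). Col1a2 stood at 164, 149.6, 162 and 168 TPM and at 159.6, 179, 170.2 and 155 TPM (0.04, SE 0.06, adjusted p 0.664). The groups overlapped for both. Given as a description chosen after the values were seen, the ratio of Col3a1 to Col1a1 was 1.30 to 1.53 in the control lungs at 6 months and 1.78 to 2.03 in the knockouts. At 6 days it was 1.58 to 1.96 in the controls and 1.55 to 2.46 in the knockouts, with knockout 3 the highest.

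Basement membrane collagens showed 2 rises and 1 fall among 8 tested at 6 months, beside 15.9% and 13.9% of all genes tested. Col15a1, a vessel and muscle basement membrane collagen, stood at 7.17, 7.29, 8.26 and 8.70 TPM in the controls and 11.4, 12.5, 18.2 and 11.3 TPM in the knockouts (0.68, SE 0.14, adjusted p 0.00389). Its relative Col18a1 stood at 26.9, 23.8, 28.4 and 28.7 TPM and at 33.2, 32.5, 37.4 and 32.3 TPM (0.32, SE 0.08, adjusted p 0.0103). Both rose without overlap. Col4a6 fell from 7.201, 6.96, 9.49 and 8.02 TPM to 5.98, 5.75, 5.18 and 4.64 TPM (-0.48, SE 0.12, adjusted p 0.0102). The main chains Col4a1 (-0.00, SE 0.13, adjusted p 0.994) and Col4a2 (0.04, SE 0.11, adjusted p 0.822) did not pass. These 2 genes start head to head on chromosome 8 and their first exons overlap on opposite strands, so reads there cannot be told apart in libraries without strand.

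All 3 transmembrane collagens tested at 6 months fell, as did 13.9% of all genes tested. Col13a1, found at cell adhesion sites, stood at 42.4, 47.3, 44.7 and 45.8 TPM in the controls and 31.8, 27.3, 27.5 and 30.3 TPM in the knockouts (-0.61, SE 0.07, adjusted p 5.85e-05). Col23a1 fell from 35.9, 30.2, 37.1 and 33.8 TPM to 24.5, 20.1, 20.6 and 21.3 TPM (-0.64, SE 0.09, adjusted p 0.000203). Col17a1 fell from 2.39, 2.49, 3.06 and 2.52 TPM to 1.34, 0.87, 1.27 and 1.04 TPM (-0.76, SE 0.13, adjusted p 0.00112). None of the 3 overlapped between genotypes.

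The largest values at 6 months belonged to 2 other collagens. Col28a1, a von Willebrand factor A domain collagen known from peripheral nerve, stood at 1.09, 0.599, 1.51 and 0.551 TPM in the controls and 4.47, 5.79, 4.13 and 3.63 TPM in the knockouts (1.52, SE 0.18, adjusted p 9.12e-05). Peripheral glia markers did not pass in the same lungs (0 of 2 tested, summed level 3.83 to 5.12 TPM in the controls and 3.13 to 4.06 TPM in the knockouts). Col12a1, which coats the surface of fibrils, fell from 14.1, 8.65, 11.9 and 10.5 TPM to 4.14, 4.26, 4.75 and 4.53 TPM (-1.16, SE 0.13, adjusted p 6.05e-05). In both the knockouts lay wholly apart from the controls.

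Type 6 collagen and the short chains divided within their own assemblies. Col6a1 did not pass at 6 months (119, 112, 126 and 125 TPM in the controls, 119, 134, 136 and 120.2 TPM in the knockouts, 0.08, SE 0.06, adjusted p 0.417). Col6a2 fell from 118, 103, 116 and 117 TPM to 89.3, 92.0, 96.8 and 90.7 TPM (-0.29, SE 0.06, adjusted p 0.0028). Col6a3 fell from 32.3, 28.1, 36.2 and 33.1 TPM to 24.3, 26.6, 30.4 and 25.0 TPM with overlap (-0.28, SE 0.09, adjusted p 0.0433), passing only without control 2 or knockout 3 when 1 lung was left out. The ratio of Col6a1 to Col6a2 was 1.01 to 1.09 in the controls and 1.32 to 1.45 in the knockouts. In sorted AT2 cells the same ratio was lower in the knockouts (3.61 to 3.79, against 4.09 to 4.76 in the controls).

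Of the type 8 chains, Col8a2 fell from 17.6, 17.4, 13.9 and 15.8 TPM to 10.8, 11.5, 9.44 and 9.93 TPM (-0.59, SE 0.10, adjusted p 0.000876). Col8a1 rose from 8.00, 7.62, 7.32 and 6.94 TPM to 8.35, 9.44, 10.98 and 9.57 TPM (0.32, SE 0.10, adjusted p 0.0324), but passed only without control 1 or knockout 1 when 1 lung was left out. Col24a1, a fibrillar collagen under the filter and not tested, was listed at 0.0437 to 0.0986 TPM in the controls and 0.361 to 0.918 TPM in the knockouts at 6 months, and at 0.0746 to 0.203 TPM and 0.326 to 0.915 TPM at 6 days. The groups overlapped at neither time, and it is named here after its values were seen.

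Cell markers moved widely at 6 months, where 15.9% of all genes tested rose and 13.9% fell. Fibroblast markers fell for 9 of 12 (summed level 5023 to 5507 TPM in the controls and 3077 to 3696 TPM in the knockouts), smooth muscle and pericyte markers for 6 of 10, endothelial markers for 7 of 10, mesothelial markers for 5 of 5 and heart muscle markers for 5 of 6. Macrophage markers rose for 8 of 9 (629 to 854 TPM in the controls and 4468 to 7925 TPM in the knockouts, led by Chil3 and Cd68). Col3a1, Col15a1 and Col18a1 were higher, and Col5a1, Col12a1 and Col6a3 lower, in lungs with a lower fibroblast marker sum. The part of cell makeup in either direction was not tested.

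The difference between the knockout effects at 6 months and 6 days was tested for 28 collagens in both tables, and 0 passed with all lungs, against 2.73% of all genes. Without knockout 3 of the 6-day lungs 5 passed, where 6.36% of all genes did, all with the lower value at 6 months: Col12a1 (difference -1.22, SE 0.24, adjusted p 0.00756), Col5a1 (-1.30, SE 0.26, adjusted p 0.0205), Col5a2 (-0.94, SE 0.23, adjusted p 0.0353), Col1a1 (-0.95, SE 0.22, adjusted p 0.0384) and Col4a1 (-0.94, SE 0.26, adjusted p 0.0498). Without knockout 1 of those lungs only Col28a1 passed (1.47, SE 0.32, adjusted p 0.0221). With all lungs the effects at 6 months and 6 days were 0.02 and 0.30 for Col1a1, 0.42 and 0.38 for Col3a1, and -1.16 and -0.41 for Col12a1.

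In AT2 organoids 15 collagens were tested, 1 fell and none rose, where 0.218% of all genes tested rose and 0.387% fell. With an unadjusted p under 0.05 there were 3 of 15 higher and 6 lower, beside 19.7% and 16.8% of all genes tested. These counts include members whose sign was set by the filter: Col1a1 among the higher, and Col7a1, Col23a1 and Col25a1 among the lower. The 1 fall that passed was that of Col16a1, a collagen that associates with fibrils and with the cell surface. It stood at 7.04 and 7.67 TPM in the controls and 1.34 and 1.45 TPM in the knockouts (-1.80, SE 0.16, adjusted p 0.0431). The call was lost without either knockout library, with no filter, with a filter at 5 TPM and after quantile normalization.

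With 2 libraries a group, many other differences were large and did not pass. The 7 tested collagens outside the fibrillar and basement membrane classes had values from -1.03 to -3.71. Of these, 4 (Col6a1, Col7a1, Col23a1 and Col25a1) were under 1 TPM in both knockouts and met the filter only through the controls, which fixed their sign. The farthest was Col17a1, at 21.7 and 92.0 TPM in the controls and 3.07 and 2.02 TPM in the knockouts (-3.71, SE 0.71, adjusted p 0.0701). Col23a1 stood at 3.73 and 6.07 TPM in the controls and 0.0927 and 0.122 TPM in the knockouts (-2.38, SE 0.26, adjusted p 0.0528), and Col12a1 at 20.0 and 5.10 TPM and at 2.50 and 1.69 TPM (-1.88, SE 0.63, adjusted p 0.117). The 2 controls lay far apart for Col17a1 and Col12a1, in opposite order, and in all 3 genes the knockouts lay below both.

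Basement membrane chains had the opposite sign for 6 of 7 tested. Col4a4 stood at 1.87 and 0.821 TPM in the control organoids and 6.76 and 5.64 TPM in the knockouts (1.65, SE 0.28, adjusted p 0.0673). Col4a3, its partner in the network of mature alveolar basement membrane, stood at 1.47 and 0.667 TPM and at 6.72 and 4.54 TPM (1.69, SE 0.30, adjusted p 0.0686). Col4a1 stood at 134 and 60.9 TPM and at 175 and 167 TPM (0.91, SE 0.39, adjusted p 0.17), and Col4a2 at 105 and 52.3 TPM and at 142 and 139 TPM (0.91, SE 0.35, adjusted p 0.144). All 4 had both knockouts above both controls, as did 39.6% of all genes tested, and none passed. Col18a1 was the exception in sign (-0.73, SE 0.35, adjusted p 0.205). Col1a1 was the only fibrillar collagen tested, met the filter only through the knockouts and could only come out higher. It stood at 0.229 and 0.173 TPM in the controls and 1.32 and 1.39 TPM in the knockouts (0.97, SE 0.20, adjusted p 0.0708). Of the type 6 chains only Col6a1 was tested, at 6.20 and 1.15 TPM and at 0.995 and 0.854 TPM (-1.03, SE 0.62, adjusted p 0.279), while Col6a2 and Col6a3 were listed at no more than 0.399 TPM in any organoid library.

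Col4a4 and Col4a3 start head to head on chromosome 1 of GRCm38, Col4a4 at 82586849 on the minus strand and Col4a3 at 82586921 on the plus strand. The 71 bases between the starts (chr1:82586850-82586920) are shown on the Col4a4 strand, from the RefSeq promoter table, because it lies before both genes, whose differences from sorted AT2 cells are given below.
Col4a3-Col4a4 interval: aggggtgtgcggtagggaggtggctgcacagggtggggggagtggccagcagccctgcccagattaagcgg
On both strands this stretch holds no match to the GC box GGGCGG, to CCAAT or to TATAAA, which occur in 20.7%, 13.3% and 4.41% of windows of the same length and place before the starts of 32851 genes. No match says only that these letters are not in this window. In sorted AT2 cells the pair did not pass: Col4a3 stood at 10.3, 15.5 and 11.1 TPM in the controls and 8.69, 11.1 and 11.1 TPM in the knockouts (-0.23, SE 0.16, adjusted p 0.409), and the log2 fold change of Col4a4 was -0.13 (SE 0.11, adjusted p 0.47). In whole lungs the ratio of Col4a3 to Col4a4 was lower in every knockout than in any control at 6 days (from 1.6 to 1.94, against 2.42 to 2.54) and at 6 months (1.79 to 1.88, against 2.07 to 2.41). This ratio was looked at after the values were seen and was not tested.

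**Figure D4:**
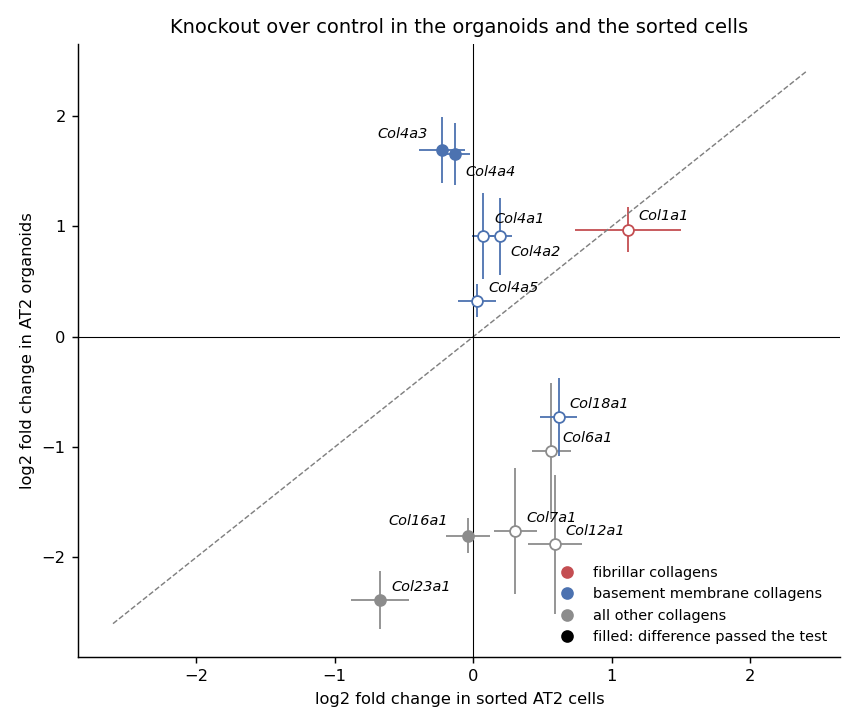
log2 fold change, knockout over control, in sorted AT2 cells (horizontal) and AT2 organoids (vertical) of the 12 collagens tested in both, with bars of 1 standard error, the dashed line where both are equal, and filled points where the difference passed. Col4a3 and Col4a4 lie above the line and Col16a1 and Col23a1 below it.

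The knockout effect in organoids differed from that in sorted AT2 cells for 4 of 12 collagens tested in both, against 9.29% of all genes. Col4a3 (difference 1.92, SE 0.34, adjusted p 0.0216) and Col4a4 (1.78, SE 0.30, adjusted p 0.0261) were the more positive in organoids. Col16a1 (-1.77, SE 0.22, adjusted p 0.00136) and Col23a1 (-1.71, SE 0.34, adjusted p 0.0187) were the more negative. For Col23a1 the sign in organoids was set by the filter. The 4 differences passed with each of the sorted libraries left out, and 0 passed without either organoid knockout, where 0.332% and 0.27% of all genes differed. Leaving out an organoid control raised the count over all genes too: 10 of 12 collagens and 42.5% of all genes differed without control 1, and 8 of 12 and 19.1% without control 2. Col18a1, which rose in sorted AT2 cells, had a difference of -1.35 (SE 0.38, adjusted p 0.0819).

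Epithelial markers moved with these values in the organoids, where 0.218% of all genes tested rose and 0.387% fell. Basal and airway markers were lower for 2 of 5, Krt5 (mean 1121 TPM in the controls and 57.4 TPM in the knockouts) and Krt14, with a summed level of 1067 to 2193 TPM in the controls and 191 to 217 TPM in the knockouts. AT2 markers (summed level 14435 to 45319 TPM in the controls and 71493 to 78492 TPM in the knockouts, 0 of 8 passing) and AT1 markers (1617 to 1730 TPM and 2392 to 2988 TPM, 0 of 7 passing) were higher in the knockouts without passing. Of the fibroblast markers Tcf21, Dpt, Ogn and Slc7a10 were at 0 in all 4 organoid libraries and 0 of 3 tested passed. The part of these cell states in the collagen values was not tested.

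The machinery that builds collagen moved in both directions. Of 30 genes of collagen synthesis and processing, 28 were tested in lungs at 6 months, 6 rose and 10 fell, beside 15.9% and 13.9% of all genes tested. Pcolce2, an enhancer of procollagen cleavage, fell from 279.9 to 125 TPM (-1.15, SE 0.06, adjusted p 1.65e-07) and Creb3l1, a transcription factor of collagen secretion, from 26.3 to 15.4 TPM (-0.73, SE 0.09, adjusted p 8e-05). Colgalt1, which adds galactose to collagen, rose from 74.5 to 123 TPM (0.72, SE 0.07, adjusted p 2.74e-05) and Tmem38b, a channel needed for collagen maturation, from 24.0 to 33.8 TPM (0.48, SE 0.06, adjusted p 0.000163). At 6 days 1 of 28 rose, the prolyl hydroxylase subunit P4ha3 (1.61 to 6.51 TPM, 1.46, SE 0.33, adjusted p 0.0386), and 2 fell, Pcolce2 (240.0 to 75.6 TPM, -1.72, SE 0.29, adjusted p 0.0152) and Colgalt2 (10.997 to 4.81 TPM, -1.10, SE 0.26, adjusted p 0.046). Among sorted AT2 cells Tmem38b rose (37.2 to 47.6 TPM, 0.35, SE 0.08, adjusted p 0.0351) and P4ha1, a prolyl hydroxylase subunit, fell (107 to 73.4 TPM, -0.55, SE 0.12, adjusted p 0.0356), of 21 tested. In organoids 0 of 22 passed, the nearest being P4ha2 (157 to 62.2 TPM, -1.31, SE 0.17, adjusted p 0.06). Of all genes tested, 3.16% rose and 3.79% fell at 6 days, and 6.62% rose and 1.22% fell in sorted AT2 cells.

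Of 5 crosslinking enzymes, Lox rose at 6 days (36.1 to 83.6 TPM, 1.204, SE 0.26, adjusted p 0.0343) and Loxl1 fell at 6 months (81.0 to 65.5 TPM, -0.30, SE 0.07, adjusted p 0.00759). At 6 months Lox averaged 26.1 TPM in the controls and 24.5 TPM in the knockouts (-0.06, SE 0.14, adjusted p 0.791). None of the 5 was tested in sorted AT2 cells, where all were under the filter, and 0 of 2 passed in organoids. Of all genes tested, 3.16% rose at 6 days and 13.9% fell at 6 months.

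Of 11 collagen receptors, 9 were tested at 6 months, 2 rose and 3 fell, beside 15.9% and 13.9% of all genes tested. Lair1, an inhibitory receptor of immune cells, rose from 5.43 to 16.0 TPM (1.40, SE 0.09, adjusted p 8.8e-07) and Adgrg1, a receptor for type 3 collagen, from 59.2 to 81.2 TPM (0.45, SE 0.07, adjusted p 0.000428). The integrin subunit Itga1 fell from 75.8 to 49.0 TPM (-0.62, SE 0.08, adjusted p 0.000116) and the uptake receptor Mrc2 from 47.2 to 34.7 TPM (-0.43, SE 0.06, adjusted p 0.000227). No receptor passed among the 5 tested in sorted AT2 cells, the 9 in 6-day lungs or the 5 in organoids.

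Of 10 genes of collagen breakdown, 8 were tested at 6 months, 6 rose and 2 fell, beside 15.9% and 13.9% of all genes tested. Ctsk, cathepsin K, a protease able to cut the triple helix, averaged 22.3 TPM in the controls and 591 TPM in the knockouts (4.65, SE 0.13, adjusted p 1.65e-09). It also rose at 6 days (36.7 to 567 TPM, 3.87, SE 0.34, adjusted p 0.00289) and in sorted AT2 cells (1.91 to 21.5 TPM, 2.83, SE 0.35, adjusted p 0.00593). In organoids, where macrophage markers summed to no more than 20.5 TPM, it averaged 0.452 TPM in the controls and 1.498 TPM in the knockouts (0.82, SE 0.29, adjusted p 0.129). The gelatinase Mmp2 (0.90, SE 0.07, adjusted p 2.6e-06) and its activator Mmp14 (0.68, SE 0.07, adjusted p 2.27e-05) rose at 6 months, and Mmp14 rose in sorted AT2 cells (0.35, SE 0.09, adjusted p 0.0474). Mmp15 fell at 6 months (-0.63, SE 0.07, adjusted p 7.22e-05), and Mmp8, a neutrophil collagenase, rose at 6 days (1.56, SE 0.17, adjusted p 0.00462). The summed level of the list was 258 to 286 TPM in the controls and 789 to 1037 TPM in the knockouts at 6 months, of which Ctsk made up 18.3 to 24.0 TPM and 456 to 719.9 TPM. Macrophage markers rose in the same lungs, and their part in these values was not tested.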

How the data were processed

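Poly(A)-selected, non-strand-specific RNA-seq libraries (24) were analysed as 4 tables, and each value is a TPM computed by the authors. The build GRCm38 is given per the submitters' processing notes, while the sources used here name no aligner, quantifier or gene models. Each table held 24972 genes, of which 2 with a repeated symbol were left out. No values were pooled over libraries, and 24464 of 24970 symbols matched GENCODE M21, used for positions and 3′ UTRs of at least 50 bases. Mature microRNA and promoter sequences are from RefSeq (GRCm38.p6).

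Groups come from the labels. On log2(TPM + 1), limma 3.58.1 (R 4.3.3) was run separately per table with genotype as the only term, eBayes with trend, two-sided. A gene was tested if the number of libraries at 1 TPM or above reached the size of the smaller group. Calls are at a Benjamini-Hochberg adjusted p under 0.05 over all genes tested. Fold changes on this scale understate the change of low genes. Knockout effects of 2 tables were compared by the difference of their log2 fold changes with separate standard errors (Welch-Satterthwaite), adjusted likewise. Figures used Python 3.11.15, pandas 2.3.3 and matplotlib 3.10.9. The fit was tested on simulated data.

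Named collagens are those that passed anywhere, the main chains of types 1, 3, 4 and 6, those with the 8-base let-7 match, and others said to be chosen after their values were seen. Collagens shown only for their place in the filters, figures or differences (Col4a3, Col4a4, Col25a1 and the like) fall outside that rule, their values having been seen first. From the other lists the members with the smallest adjusted p or the highest TPM are named. The members and lists were chosen with earlier results of these data known. The alternatives changed the pseudocount (0.1), the filter (none, or 5 TPM), the scaling (median-ratio or quantile) and the model (a replicate block), or left out each library in turn.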

Additional observations from a re-analysis of the deposited data

Results flagged for a closer look

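In whole lungs at 6 months 7 of 56 groups of 4 lungs held 1 lung whose gap to the nearest other was most of the group's range. Chance gives about 1 in 20, and as the genes share the same lungs the groups are not independent. These lungs were knockout 3 for Col4a1 (344 TPM) and Col16a1 (15.9 TPM), control 3 for Col4a2 (218 TPM) and Col5a1 (21.4 TPM), control 2 for Col4a5 (28.5 TPM) and Col6a2 (103 TPM), and knockout 1 for Col5a3 (5.52 TPM). The knockout effect differed by test between AT2 organoids and sorted AT2 cells for Col16a1 (-1.77 on the log2 scale), Col23a1 (-1.71), Col4a3 (1.92) and Col4a4 (1.78).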

How the results depend on the processing

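No collagen call made with all libraries reversed under any alternative. Col4a6, not called in organoids with all libraries, changed sign with the control left out. Its log2 fold change was -0.68 without control 1 and 0.85 without control 2. In sorted AT2 cells the count of 3 higher collagens became 1 with no filter, with median-ratio scaling and with quantile normalization, and 0 to 3 when 1 library was left out. In lungs at 6 days the counts of 0 became 1 higher and 1 lower with median-ratio scaling, 1 lower with no filter and 1 lower with quantile normalization, and ranged over 0 to 6 higher and 0 to 3 lower when 1 lung was left out. In lungs at 6 months leaving out 1 lung gave 4 to 6 higher and 8 to 9 lower. In organoids the 1 lower collagen became 0 with no filter, 0 with a filter at 5 TPM and 0 with quantile normalization, and leaving out 1 library gave 0 to 6 higher and 0 to 9 lower, following the calls over all genes (29% rose and 25% fell when control 1 was dropped, 11.7% and 13.5% when control 2 was, and 0 in the fits lacking a knockout). Differing effects numbered 0 to 5 between lungs at 6 months and 6 days and 0 to 10 between organoids and sorted cells when 1 library was left out, and 7 between the latter with a shared spread. The labels do not say that replicate numbers pair the samples, and correlations of same-numbered libraries were -0.17 to 0.22. With the replicate block organoids gave 2 higher and 3 lower collagens, while calls over all genes went from 27 higher and 48 lower to 122 and 277, and Col8a1 at 6 months no longer passed. At 6 months every control lung correlated best with the knockout of its own number (0.08 to 0.22), a hint of pairing from the data only.

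Over all genes, sorted AT2 cells gave 802 higher and 148 lower (84.4% higher), against 420 and 204 (67.3%) with median-ratio scaling and 401 and 216 (65.0%) with quantile normalization. With no filter they gave 340 and 30. At 6 days the median of all genes was -0.14, and 0.00 after median-ratio scaling, which gave 946 higher and 852 lower in place of 447 and 536. Quantile normalization gave 922 and 966. Depth is unknown, so low collagens have no counting error.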
